A study of Mus musculus with 2 samples.

Results

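The IL-17 family of cytokines and their receptors was followed on the expression arrays of regulatory T (Treg) cells, the CD4 T cells that restrain immune responses. Its members were taken by gene name: 10 genes, of which 6 encode cytokines (Il17a, Il17b, Il17c, Il17d, Il17f and Il25) and 4 encode receptor chains (Il17ra, Il17rb, Il17rc and Il17re). They were read by 13 of the 55681 non-control probes, and the arrays carried 34960 gene names in all. The study compared Treg cells sorted from 5-week-old wild-type mice with Treg cells from Nr4a-TKO mice of the same age, with 1 array for each genotype. The Nr4a genes encode 3 related nuclear receptors, and the labels do not state which part of which gene was altered in Nr4a-TKO, whether it was altered in all cells, the sex of the mice, the sorting markers or how many mice gave each sample. The cells were lysed directly after the sort, per the labels' protocols, with no culture step in between. With 1 array per genotype there is no replicate check, and every difference below is between these arrays.

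The genotype labels were borne out only in part. Of the targeted genes Nr4a3 was lower in Nr4a-TKO by 7.04-fold, or 3.26-fold with normexp background correction. Nr4a1 was 1.04-fold higher, a direction that turned in some settings, and Nr4a2 was 2.54-fold higher. These probes check the labels only if they lie in an altered part, which was not analysed here. Xist, the RNA made from the inactive X chromosome of female cells, was far higher on the array labelled Nr4a-TKO. The brightest probe named Xist was well above background there only, by a bound of at least 106-fold. The brightest of those the file names XIST was measured on both arrays and was 380.2-fold higher. All 12 markers that define CD4 T cells and Treg cells were well above background on both arrays. Their summed signal was 1304 times the array's 75th percentile in wild-type and 1087 times it in Nr4a-TKO. By any amount, 2 of the 12 markers were higher in Nr4a-TKO and 10 were lower. Their median log2 difference, Nr4a-TKO minus wild-type, was -0.52, beside 0.08 over all gene names measured on both arrays. Of the 12 markers, 3 were at least 2-fold lower in Nr4a-TKO, where 3.06% of all such names were. Foxp3, the factor that defines Treg cells, was 17.2-fold lower, or 10.3-fold with normexp. Ikzf2 was 3.07-fold lower and Ctla4 2.29-fold lower, or 2.85-fold and 2.33-fold with normexp. Directions below are drawn from the library labelled Nr4a-TKO against wild-type.

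IL-17A and IL-17F are related cytokines encoded side by side in 1 locus. Th17 cells, gamma delta T cells and some innate lymphoid cells secrete them, and they act mainly on epithelial and stromal cells, where they induce neutrophil-attracting chemokines and antimicrobial proteins. IL-17RA is the chain that family receptors share: it pairs with IL-17RC for IL-17A and IL-17F, with IL-17RB for IL-25, a cytokine of type 2 immunity, and with IL-17RE for IL-17C. Treg and Th17 cells arise from related precursors.

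The promoters of Il17a and Il17f are shown because these neighbouring genes are the family's main T cell cytokines and differed in opposite directions. Of the 10 members 7 had a promoter in the RefSeq table of assembly GRCm38.p6. The 250 bases before each start were searched on both strands for AAAGGTCA, the element that Nr4a receptors bind as monomers, and for AGGTCA, the core that many nuclear receptors bind and which AAAGGTCA contains. AAAGGTCA was found in 0 of the 7 windows and in 1.34% of all 32851 promoter windows of that length. AGGTCA was found in 2 of the 7, those of Il17a and Il17f, and in 14% of all windows. In the Il17a window (chr1:20730655-20730904, plus strand) it lies on the reverse strand, 115 to 120 bases before the start. In the Il17f window (chr1:20784271-20784520, minus strand) it lies on the forward strand, 53 to 58 bases before the start. Each sequence runs 5′ to 3′ toward the start, and capitals mark the AGGTCA match, which reads TGACCT where it is on the reverse strand. A match describes the sequence and does not show that a factor binds there.
Il17a: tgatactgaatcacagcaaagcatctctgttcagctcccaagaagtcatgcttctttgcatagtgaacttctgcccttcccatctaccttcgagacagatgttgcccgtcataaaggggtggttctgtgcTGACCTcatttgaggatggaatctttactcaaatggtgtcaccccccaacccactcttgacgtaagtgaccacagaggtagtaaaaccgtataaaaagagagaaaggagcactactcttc
Il17f: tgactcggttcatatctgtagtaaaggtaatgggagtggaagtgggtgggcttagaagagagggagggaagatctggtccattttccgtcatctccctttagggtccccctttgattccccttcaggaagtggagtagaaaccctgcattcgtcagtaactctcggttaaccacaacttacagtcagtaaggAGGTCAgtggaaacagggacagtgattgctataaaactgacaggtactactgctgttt

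Across the family, the scanner called 8 members well above background on each array, and Il17a and Il17rb on the wild-type array only. Of the 26067 gene names with such a call on 1 array or both, 6.11% had it in wild-type only and 3.76% in Nr4a-TKO only. Signals are the scanner's processed signals, after background subtraction and in arbitrary units, with the scanner's own error for the spot. Each member probe had 1 spot, so no spread between spots could be taken. Differences are log2 values of Nr4a-TKO minus wild-type after each array was scaled to its 75th percentile. Where a gene was not well above background on an array, a lower bound is given. It sets the brighter array against the higher of 2 values on the dimmer one, the lowest signal well above background there (28.1 in wild-type and 29.3 in Nr4a-TKO) and the probe's own signal.

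By difference or bound, 1 member (Il17f) was at least 2-fold higher in Nr4a-TKO and 2 (Il17a and Il17rb) were at least 2-fold lower. Over those 26067 names, 3.84% were higher and 3.63% lower by as much. Over the 23493 names measured on both arrays, these shares were 3.15% (741 names) and 3.06% (720), or 6.22% either way, and 1 of the 8 members measured on both was past 2-fold, in the higher direction. With spike-in controls as the centre the split over the names measured on both arrays was 509 higher and 1071 lower. There 3 members were past 2-fold lower by difference or bound: Il17ra by its difference, and Il17a and Il17rb by their bounds. The median difference of those 8 members was 0.28, beside 0.08 over all names measured on both arrays, and 5 were higher and 3 lower by any amount, where 59.6% of all such names were higher.

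**Figure D1:**
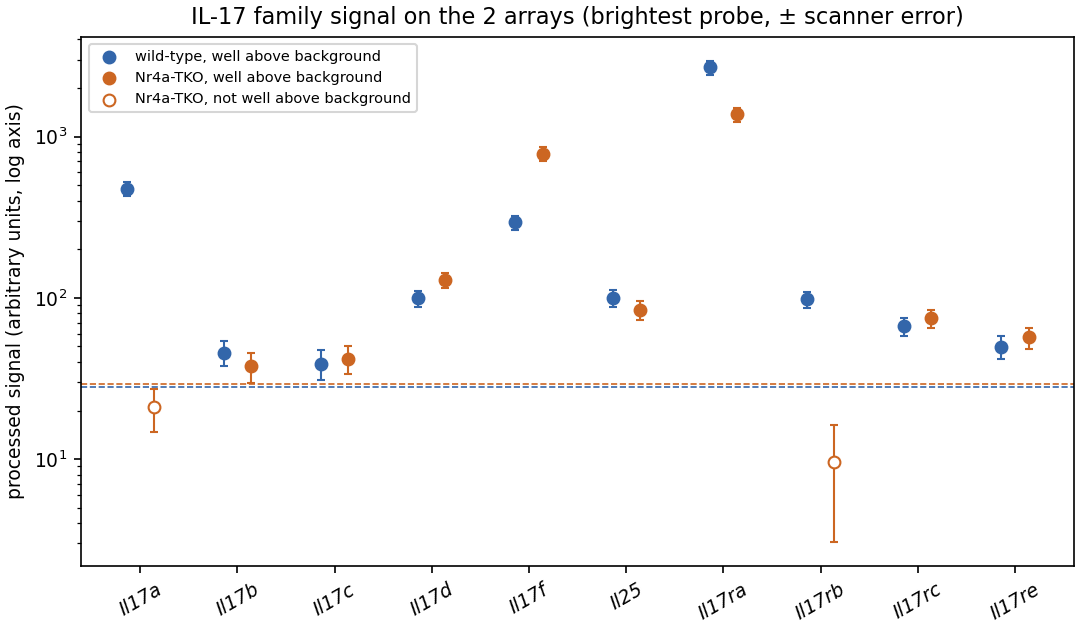
Processed signal (arbitrary units, log axis) of the brightest probe of each IL-17 family member on the wild-type and Nr4a-TKO arrays, before scaling between arrays. Error bars are the scanner's error for 1 spot, open points are not well above background, and dashed lines mark the lowest signal well above background on each array (28.1 and 29.3). Il17a and Il17rb are open in Nr4a-TKO, and Il17f is the member with the highest ratio of Nr4a-TKO to wild-type.

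Il17a, the cytokine that gives the family its name, had a signal of 473 ± 47.7 in wild-type and 21.0 ± 6.37 in Nr4a-TKO (± scanner error). It was bright in wild-type, 16.9 times the lowest signal well above background there, and on the other array it was below that limit. The negative control spots had a highest signal of 7.58 in wild-type and 7.81 in Nr4a-TKO. The bound was at least 14.6-fold lower in Nr4a-TKO, or at least 5.66-fold with normexp background correction and at least 3.66-fold with the stricter filter on dim probes. Of the 26067 names above background on 1 array or both, 22 (0.0844%) were as far down by difference or bound. The only Il17a probe lies at chr1:20724404-20724463 on the plus strand of mm9, 997 bases into the transcript as the file counts it. Whether a probe lies in coding sequence or a UTR was not analysed here. In a bulk sample, fewer cells that make a transcript and less of it per cell cannot be told apart.

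Il17f, the closest relative of Il17a, had a signal of 293 ± 29.9 in wild-type and 784 ± 78.7 in Nr4a-TKO. Both values were clear of the limit, 10.4 and 26.8 times it, so Il17f was measured on each array and was the brighter in Nr4a-TKO. The scaled difference was 1.56, or 2.96-fold higher, against a scanner error of 0.21 for the difference. Among the 23493 names measured on both arrays, 1.25% were higher by at least as much. Il17f stayed between 2.53-fold and 2.97-fold higher in the 9 alternative settings. Its 60-base probe is shown, and its longest run of bases in common with the Il17a probe was 5. The probe was not compared with the rest of the Il17a transcript, so this run does not show how well it tells Il17f from Il17a. The probe covers chr1:20768074-20769419 on the minus strand of mm9, a span of 1346 bases, so it crosses an intron and starts 271 bases into the transcript. All of it is in lower case, since no part is singled out.
Il17f probe: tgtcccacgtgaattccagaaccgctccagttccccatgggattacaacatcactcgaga

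The opposite differences at this locus were read by unlike probes. Over the 75 pairs of probes of different members, the longest shared run was 8 bases. No protein-coding gene lies between Il17a and Il17f in the RefSeq gene order. Of the nearest protein-coding genes on either side, Pkhd1 differed by -0.17 and Paqr8 by -0.70, and Tfap2b did not rise clear of background. Mcm3, a replication helicase subunit next to Il17f, differed by -0.33 at its brighter probe and by 0.61 at the other. None of the neighbours measured on both arrays passed 2-fold in the main setting, and Tfap2b had no difference to judge. All 4 neighbours were chosen after the values of Il17a and Il17f were known.

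The other cytokine members were dim and differed little. Il17b had a signal of 45.7 ± 8.15 in wild-type and 37.8 ± 7.96 in Nr4a-TKO, a scaled difference of -0.13. Il17c, an epithelial cytokine, had 39.0 ± 8.18 and 42.0 ± 8.31, a difference of 0.25. Il25, which drives type 2 immunity, had 100 ± 12.4 and 84.0 ± 11.1, a difference of -0.11. Each of these 3 differences was smaller than the scanner error of the difference (0.40, 0.42 and 0.26), and those of Il17b and Il25 changed sign with normexp. Il17d had a signal of 99.2 ± 11.5 and 129 ± 14.3 at its brighter probe, a difference of 0.53 with an error of 0.23. Its second probe had 82.8 ± 10.3 and 87.8 ± 10.9, a difference of 0.23 with an error of 0.25. The Il17d probes thus gave the same direction and both were under 2-fold. On the plus strand of mm9, the Il17c probe lies at chr8:124947254-124947313, that of Il25 at chr14:55554319-55554378 and the brighter Il17d probe at chr14:58161931-58161990.

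Among the receptors, Il17ra, the shared chain, had a signal of 2679 ± 268 in wild-type and 1374 ± 138 in Nr4a-TKO. This was the member furthest above the limit on each array, at 95.5 and 47.0 times it, and wild-type was the brighter. The scaled difference was -0.82, or 1.77-fold lower, with a scanner error of 0.20. It was under 2-fold in the main setting, and 2.03-fold lower with spike-ins as the centre. Of all names measured on both arrays, 4.40% were lower by at least as much. The 1 probe lies at chr6:120432880-120432939 on the plus strand of mm9.

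Il17rb, the chain that pairs with IL-17RA to bind IL-25, had a signal of 97.8 ± 11.5 in wild-type and 9.63 ± 6.55 in Nr4a-TKO. The wild-type value was 3.49 times the limit, and the Nr4a-TKO value was below it. The bound was at least 3.03-fold lower in Nr4a-TKO, but at least 1.69-fold with normexp. This probe lies at chr14:30809354-30809413 on the minus strand of mm9, 2001 bases into the transcript. The other Il17rb probe, 220 bases into the transcript, missed the scanner's call in each sample (23.6 ± 7.10 and 13.9 ± 6.70), so the Il17rb bound rests on 1 spot per array.

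Il17rc, the partner of IL-17RA for IL-17A and IL-17F, had a signal of 66.5 ± 8.77 in wild-type and 74.8 ± 9.60 in Nr4a-TKO, a difference of 0.31 with an error of 0.27. Its second probe (28.6 ± 7.78 and 24.3 ± 7.88) missed that call in each sample. Il17re, the partner for IL-17C and the direct neighbour of Il17rc in the gene order, had 49.9 ± 7.87 and 56.9 ± 8.47, a difference of 0.33 with an error of 0.31. Il17rd, a related receptor outside the 10 genes, missed it too (9.47 ± 5.80 and 6.04 ± 6.06). The brighter Il17rc probe lies at chr6:113433073-113433132 and the Il17re probe at chr6:113420078-113420137, both on the plus strand of mm9. Of the 4 receptor genes, 1 was lower past 2-fold by its bound and 3 were under 2-fold.

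**Figure D2:**
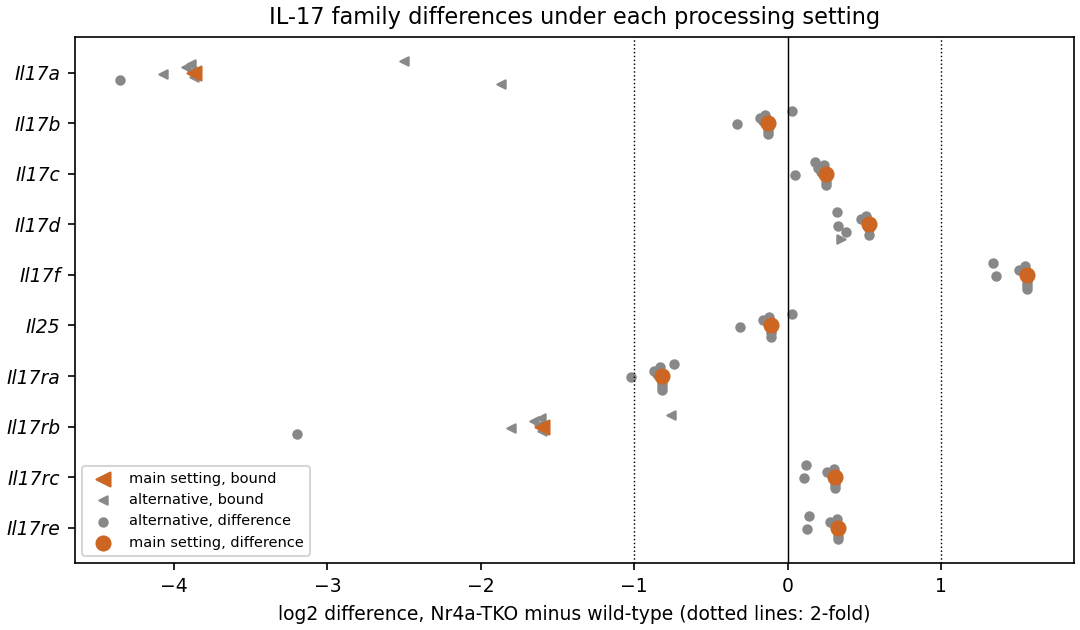
Log2 difference, Nr4a-TKO minus wild-type, of each IL-17 family member in the main setting and under up to 9 alternative settings; triangles are lower bounds that point away from 0, circles are differences, and dotted lines mark 2-fold. Il17f lies between 1.34 and 1.57 in every alternative, Il17a between -4.35 and -1.87, and Il17rb between -3.20 and -0.76.

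Transcription factors of Th17 differentiation were all measured, 21 of 21, of which 4 were higher and 2 lower past 2-fold, and their median was 0.33. The share past 2-fold was 28.6%, beside 6.22% of all names measured on both arrays. Id2, an inhibitor of E proteins, was 3.25-fold higher, Fosl2 2.54-fold, Batf, an AP-1 factor that Th17 cells require, 2.49-fold and Rora, a nuclear receptor, 2.36-fold. Foxp3 was lower as above. Ets1 was 2.30-fold lower at its brighter probe and under 2-fold as the mean of its 2 probes. Of the brightest others, Stat3 differed by 0.72, Socs3 by 0.59, Hif1a by 0.33, Satb1 by 0.22, Irf4 by -0.07 and Id3 by -0.72.

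Receptors upstream of IL-17 production differed in both directions. Of 12 listed, 11 could be compared between the arrays. Past 2-fold, 2 were higher and 1 was lower, a share of 27.3% beside 6.22% of all names either way, and the median was -0.12. Il1r1, the IL-1 receptor that drives IL-17 production, was 6.31-fold higher, or 3.30-fold with normexp. Il12rb1, a chain of the IL-12 and IL-23 receptors, was 2.67-fold higher, a difference of 1.42, with its other probe higher too. Il6st, the signalling chain of the IL-6 receptor, was 2.82-fold lower, while Il6ra differed by -0.20. Il23r, the other chain of the IL-23 receptor, did not rise clear of background in either sample. Of the brightest others, Il7r differed by 0.73, Il21r by 0.50, Tgfbr1 by -0.12, Ccr6 by -0.69 and Tgfbr2 by -0.75.

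Of 10 other cytokines listed for Th17 cells, 9 had a probe under that name and 8 could be compared between the arrays, of which 6 were higher by any amount. Past 2-fold, 3 were higher and 1 was lower, which is 4 of the 8, beside 6.22% of all names either way. The median was 0.55. Il21, which acts back on Th17 cells, was 15.3-fold higher and Il9 was 14.4-fold higher. Il22, an epithelial repair cytokine, was 2.23-fold higher, and 1.81-fold with normexp. Ifng was 3.91-fold lower. Il10 differed by 0.56, Csf2 by 0.55, Tnf by 0.23 and Lif by -0.70, and Ccl20 stayed below that call in both samples.

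In the IL-25 arm of type 2 immunity, 7 of 12 listed genes could be compared. Past 2-fold, 3 were higher and 1 was lower, a share of 57.1% beside 6.22% of all names either way. The median was 0.54, or 0.11 with no filter on dim probes. The cytokine genes Il9 (as above), Il4 (4.91-fold) and Il13 (3.36-fold) were higher. Gata3, the factor that directs Th2 cells, was 3.54-fold lower. Il4ra differed by 0.54, Crlf2 by -0.13 and Ptgdr2 by -0.16. The remaining 5 (Areg, Il1rl1, Il33, Il5 and Tslp) did not rise clear of background.

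Of 29 listed genes of IL-17 receptor signalling, 28 could be compared. Past 2-fold, 1 was higher and 0 were lower, a share of 3.57% beside 6.22% of all names either way, with a median of -0.01, whose sign turned in 1 alternative. Cebpb, a transcription factor that IL-17 signalling induces, was 4.05-fold higher. Arid5a, an RNA-binding protein that stabilises IL-17-induced transcripts, was 1.99-fold higher, and Ikbke, a kinase of the pathway named after its value was seen, was 1.94-fold lower and past 2-fold in 2 alternatives. Traf4 differed by -0.30 and Traf3 by -0.25, and Rela (-0.03), Elavl1 (0.12) and Traf2 (0.04) differed by less, with a direction that turned in some settings. Chosen after their values were seen, for their place next to the receptor, Traf3ip2, which encodes the adaptor Act1, differed by 0.15, with a direction that also turned. Nfkbiz differed by -0.40 and Zc3h12a, which encodes the RNase Regnase-1, by -0.62.

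Of 19 genes that IL-17 induces in responding tissue cells, 11 did not rise clear of background in either sample. The 5 measured on both arrays were all under 2-fold, with a median of 0.24: Csf2 at 0.55, Muc5ac at 0.26, Ccl2 at 0.24, Lcn2 at 0.11 and Muc5b at 0.02, of which Lcn2 and Muc5b turned in some settings. S100a8 and S100a9, which neutrophils make in large amounts, were well above background in wild-type only and lower by bounds of at least 2.50-fold and 2.89-fold. With normexp these bounds were 1.5-fold and 1.72-fold. Defb4, a beta-defensin gene, was well above background in Nr4a-TKO only, with a bound of at least 1.65-fold higher.

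**Figure D3:**
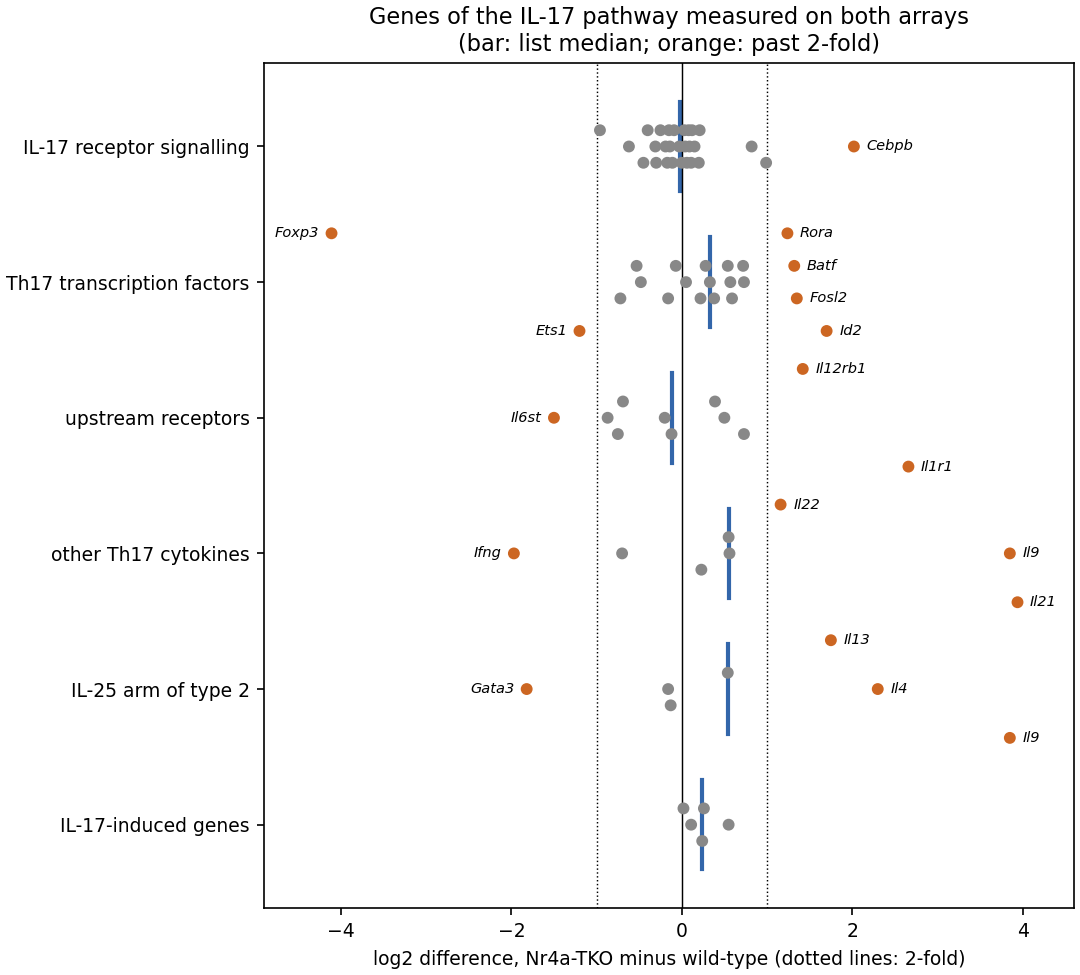
Log2 difference, Nr4a-TKO minus wild-type, of each gene measured on both arrays in 6 lists around the IL-17 family. Bars are list medians, orange points lie past 2-fold and are named, and dotted lines mark 2-fold. The signalling list clusters near 0 with a median of -0.01, and Id2 (1.70), Il1r1 (2.66) and Il21 (3.94) are the highest in theirs.

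Markers of other cells that a sort could hold differed in both directions. The summed signals given here are multiples of the array's 75th percentile. Of 17 names listed for gamma delta T cells and innate lymphoid cells, 9 had a probe under that name, 6 of them well above background in wild-type and 5 in Nr4a-TKO. Their sum was 9.38 in wild-type and 22.5 in Nr4a-TKO, most of it from Id2 and Il7r, which T cells express too. Kit was 5.40-fold lower (2.73-fold with normexp), and Blk was well above background in wild-type only. Il23r, Zbtb16 and Klrg1 were so on neither.

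The receptor names of that list had no probe, but the arrays carried 5 other names of the gamma receptor locus, which were looked up after the values were seen. Of these, 3 were lower past 2-fold by difference or bound and 0 were higher. Among all 26067 names above background on 1 array or both, 3.63% were lower and 3.84% higher by as much. Tcrg-V1 was 2.83-fold lower, and Tcrg-V7 and Trgv2, well above background in wild-type only, were at least 3.71-fold and 2.26-fold lower. Tcrg-V6 was also above background in wild-type only, and Tcrg-V5 on neither. These 5 were not recomputed under the alternatives. The receptor names were thus lower where the sum of the listed markers was higher.

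Of 16 granulocyte and mast cell markers, 10 were well above background in wild-type and 7 in Nr4a-TKO, with sums of 173 and 140.4. Csf3r, at a log2 level of 7.42 and 7.10, made up most of each sum. Mpo was 7.76-fold lower and Ctsg 5.88-fold lower, or 3.04-fold and 2.70-fold with normexp, and Ly6g was 6.72-fold higher. Besides S100a8 and S100a9, the basophil gene Mcpt8 and the eosinophil gene Prg2 were well above background in wild-type only. Their bounds were at least 2.45-fold and 2.38-fold lower, or 1.41-fold and 1.35-fold with normexp. Epx, Ear2, Mcpt4, Cpa3 and Fcer1a were well above background on neither.

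For CD8 T cells and NK cells, 8 of 10 markers were well above background in wild-type and 7 in Nr4a-TKO, with sums of 6.81 and 4.65, of which Nkg7 gave the most. Nkg7 differed by -0.78 at its brighter probe and by -2.62 at the other. Klrd1, above background in wild-type only, was at least 5.97-fold lower, and Gzma was 3.44-fold higher. With normexp these were 2.44-fold and 2.19-fold. For macrophages and dendritic cells the sums were 153 and 150.1. Most of each sum came from the brightest Siglech probe, at a log2 level of 7.12 in wild-type and 7.09 in Nr4a-TKO. The other Siglech probes were far dimmer, at -4.37 and -5.44 in wild-type and -4.66 and -5.76 in Nr4a-TKO. In the same list Lyz1 was 4.2-fold lower, or 1.89-fold with normexp. Of the 9 markers of that list measured on both arrays, 4 were higher and 5 lower by any amount, with a median of -0.02. For B cells the sums were 1.04 and 1.63, with Cd79b 2.51-fold higher and Ms4a1 above background on neither array. Of the 6 B cell markers measured on both arrays, 4 were higher and 2 lower by any amount, with a median of 0.21. For epithelial and stromal cells the sums were 0.822 and 1.08, with Krt18 2.43-fold higher (1.91-fold with normexp). Col1a1, above background in Nr4a-TKO only, was at least 2.16-fold higher (1.44-fold with normexp). Of the 7 epithelial and stromal markers measured on both arrays, 3 were higher and 4 lower by any amount, with a median of -0.08. The part of such cells in the differences of Il17a, Il17f and Il17rb was not tested. Nor was that of the Xist difference, which 1 array per genotype cannot tell apart from genotype.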

How the data were processed

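Total RNA of 1 wild-type and 1 Nr4a-TKO Treg sample was hybridised to 1-colour Agilent arrays. Per the file headers, the intensity of each spot was read with Agilent's Feature Extraction software (10.10.1.1), detrended within the array, with mm9 coordinates, and both arrays shared 1 slide, so slide was no block. The authors also deposited a table of log2 values. Compared probe by probe, it equalled log2 of the processed signal after subtraction of a constant for each array (9.69 and 9.55). Their medians were -3.54 and -3.53, and the rule behind the constants stays unknown.

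Control spots (3671 per array) and outlier spots (156 in wild-type and 117 in Nr4a-TKO) were left out, and 0 spots were saturated. The log2 signals of 55676 probes, averaged over spots, were reduced by the array's 75th percentile. Well above background were 66.0% of probes in wild-type and 63.9% in Nr4a-TKO. A gene was read by its probe with the highest mean. Names came from RefSeq accessions (GRCm38.p6) for 27509 probes and otherwise from the file. No test was run with 1 array per genotype, and the number of arrays limits the precision. The counting step was tested on simulated data.

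The members and gene lists were chosen with earlier results of these data known. A few genes of these lists are not reported here, and the lists' counts leave them out. Named from each list were genes past 2-fold and up to 6 more of highest signal, and others are said to be chosen afterwards or are listed as not above background. From the markers that define CD4 T cells and Treg cells, only those past 2-fold are named. Alternatives were normexp (offset 50), 4 other scalings, the authors' log2 table, an average over a gene's probes, omission of the background filter, a stricter filter at 4 times the lowest signal well above background, and thresholds of 1.5-fold and 3-fold. Normexp was run in limma 3.58.1 (R 4.3.3), and all else in Python 3.11.15 (numpy 2.4.6, pandas 2.3.3, matplotlib 3.10.9).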

Additional observations from a re-analysis of the deposited data

How the results depend on the processing

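The direction of Il17f held in all 9 alternatives. A bound was kept only where it pointed to the array with the call, so its direction could not turn. For Il17a and Il17rb only the difference with no filter could have turned, and both were lower there too. For Il17a the log2 bound of -3.87 became -2.50 with normexp and -1.87 with the stricter filter, and the difference with no filter was -4.35. For Il17rb the bound of -1.60 became -0.76 with normexp, under 2-fold, and the difference with no filter was -3.20. Il17f went from 1.56 to 1.34 with normexp. The mean over probes gives no bound, so Il17a and Il17rb have no value there, and the stricter filter gave none for Il17rb. The count of members at least 2-fold lower was therefore 0 with the mean over probes and 1 with the stricter filter, and it was 1 with normexp. At 3-fold, 0 members were higher. The member counts include bounds, while the counts over all names are of differences only. Over all names the 741 higher and 720 lower became 478 and 457 with normexp, 1988 and 1834 with no filter, 440 and 440 under the stricter one. A threshold of 1.5-fold gave 1965 and 1728, and one of 3-fold gave 288 and 283. Filters and thresholds move these counts by construction, and the cause of the normexp values was not tested. Centring on spike-ins moved the median of all names by -0.20, gave 509 higher and 1071 lower, and took Il17ra past 2-fold (-1.02). No paired analysis was possible because each genotype has 1 array.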
